A study of Macaca mulatta with 8 samples.

Results

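A20, TRAF and mRNA decay feedback genes are 10 genes whose products restrain or redirect signalling to NF-κB and shorten the life of inflammatory transcripts: TNFAIP3, TNIP1, TRAF1, TRAF2, TRAF3, BIRC3, CYLD, ZFP36, ZC3H12A and ZC3H12C. They were taken by symbol from the gene column of the deposited count tables, where each symbol had 1 row, and they make up 10 of the 35432 genes listed. All 10 were among the 12131 genes that passed a filter on low counts and entered the test. RNA was sequenced from primary cultures of microglia, the resident macrophages of the brain, prepared from subcortical white matter of 4 rhesus macaques. From each animal, 1 culture received 10 µg/mL ultrapure lipopolysaccharide (uLPS), a ligand of Toll-like receptor 4, and the other received 5 µM MRS2578, an antagonist of the nucleotide receptor P2RY6, for 1 h before the same uLPS. RNA was taken 16 h after uLPS in both groups, and all cultures were grown with M-CSF. No library without uLPS was analysed here, so the comparison is the within-animal difference that MRS2578 made to cells that all received uLPS, and the response to uLPS itself was not measured. The paper reports DMSO controls for its MRS2578 assays, whereas the labels do not name a vehicle for the cultures without MRS2578.

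NF-κB is a transcription factor that is held in the cytoplasm by inhibitor proteins until Toll-like or TNF receptors assemble ubiquitin chains that activate the kinases releasing it. Among the genes it is known to switch on are its own brakes: A20 and CYLD edit or remove those ubiquitin chains, and TRAF and cIAP proteins build them or limit them. A further layer acts on the transcripts, since tristetraprolin and the regnase family bind cytokine mRNAs and speed their decay, which makes these genes a standard part of how macrophages end an inflammatory response.

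The regulatory sequence of the members was read from the rhesus genome Mmul_10 with its RefSeq annotation, because NF-κB binding upstream of these genes and AU-rich elements downstream are the sequence features by which this circuit is known. The 250 bases before the annotated start are shown for 5 members, on the strand of the gene, with matches to the NF-κB decamer in capitals. TNFAIP3, TRAF3 and BIRC3 are shown because they held the same decamer, GGGGATTTCC. TNIP1 is shown for its palindromic match, and CYLD because it held a decamer while its transcript was not lower with MRS2578 in any donor as labelled.
TNFAIP3, chr4:41481621-41481870, plus strand: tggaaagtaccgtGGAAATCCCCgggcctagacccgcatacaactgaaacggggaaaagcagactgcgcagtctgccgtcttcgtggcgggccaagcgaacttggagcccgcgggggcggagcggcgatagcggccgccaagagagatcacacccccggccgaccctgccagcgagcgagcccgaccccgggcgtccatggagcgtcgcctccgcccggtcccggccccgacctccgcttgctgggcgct
TNIP1, chr6:148535045-148535294, minus strand: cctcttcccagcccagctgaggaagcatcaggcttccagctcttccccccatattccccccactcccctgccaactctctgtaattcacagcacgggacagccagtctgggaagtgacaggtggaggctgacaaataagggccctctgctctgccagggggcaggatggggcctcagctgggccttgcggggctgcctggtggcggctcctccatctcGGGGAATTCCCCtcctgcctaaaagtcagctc
TRAF3, chr7:165055373-165055622, plus strand: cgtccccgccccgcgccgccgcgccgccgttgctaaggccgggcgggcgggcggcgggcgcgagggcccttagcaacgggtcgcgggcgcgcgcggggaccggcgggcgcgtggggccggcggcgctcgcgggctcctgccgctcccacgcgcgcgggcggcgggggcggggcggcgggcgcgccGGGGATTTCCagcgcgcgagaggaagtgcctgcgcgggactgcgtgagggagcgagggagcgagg
BIRC3, chr14:95585967-95586216, plus strand: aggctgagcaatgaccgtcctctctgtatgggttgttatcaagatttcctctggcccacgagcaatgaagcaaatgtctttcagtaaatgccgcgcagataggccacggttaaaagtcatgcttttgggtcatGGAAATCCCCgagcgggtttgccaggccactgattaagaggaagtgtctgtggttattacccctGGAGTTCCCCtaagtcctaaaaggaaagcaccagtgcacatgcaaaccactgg
CYLD, chr20:37840495-37840744, plus strand: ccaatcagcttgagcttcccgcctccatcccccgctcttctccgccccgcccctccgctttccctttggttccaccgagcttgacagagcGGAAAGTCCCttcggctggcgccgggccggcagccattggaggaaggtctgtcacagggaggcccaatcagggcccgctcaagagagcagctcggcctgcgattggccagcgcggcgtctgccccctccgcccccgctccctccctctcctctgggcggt

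The decamer was searched on both strands of a window of 300 bases, from 250 before to 50 after the start of each gene, and overlapping matches were joined. It was present in 6 of the 10 members, TNFAIP3, TNIP1, TRAF2, TRAF3, BIRC3 and CYLD, and in 11.3% of all 21107 promoters searched in the same way. In TNFAIP3 the match GGGGATTTCC lay on the opposite strand from base -237 to base -228, counted from the start of the gene. In TRAF3 the same letters lay on the gene's own strand from base -65 to -56, and in BIRC3 on the opposite strand from -117 to -108, followed by a second match, GGGGAACTCC, from -53 to -44. The CYLD match was GGGACTTTCC, from -160 to -151 on the opposite strand. In TNIP1 the matches on both strands overlapped in 1 run from -32 to -21, and in TRAF2 the match on the gene's own strand was GGGAGGCTCC, from -150 to -141. TRAF1, ZFP36, ZC3H12A and ZC3H12C held none in this window. The consensus AP-1 site was found in 0 of 10 members and in 3.64% of promoters, and the NFAT core GGAAA in 7 of 10 members and in 58.5% of promoters. An NFAT core lay inside an NF-κB match in TNFAIP3, TRAF3, BIRC3 and CYLD. In TRAF3 it was the only one, and the other 3 genes held further cores outside the decamer. A match describes the letters only.

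The heptamer TATTTAT, a core that tristetraprolin family proteins are known to bind, was searched on the sense strand of the longest annotated 3′ untranslated region. It was found in 6 of 10 members (TNFAIP3, TRAF3, BIRC3, CYLD, ZFP36 and ZC3H12C) and in 25.0% of 19127 genes with such a region. The longer nonamer TTATTTATT, which contains the heptamer, was found in 5 of 10 members and in 5.95% of genes. TNIP1, TRAF1, TRAF2 and ZC3H12A held neither. Long regions have more room for a match, and those of ZC3H12C, TRAF3 and CYLD had 6112, 5627 and 5437 bases, against a median of 770 bases over all genes. ZFP36, which encodes tristetraprolin itself, had 3 heptamers in 722 bases, or 4.16 per kb, the highest density of the 10. The windows of ZFP36, BIRC3 and TNFAIP3 are shown, with the heptamer in capitals and its first base counted after the stop codon, because these members include the decay factor and 2 of the transcripts with the largest differences between the conditions.
ZFP36, base 507: atggacccttTATTTATgacgactttat
ZFP36, base 522: atgacgacttTATTTATtctaatatgat
ZFP36, base 547: gattttatagTATTTATatatattgggt
BIRC3, base 94: taaaatttttTATTTATttacaactcaa
BIRC3, base 134: ttgtgtaacaTATTTATataactatatg
BIRC3, base 1620: tcagagaattTATTTATggccagctctt
TNFAIP3, base 988: taattcacttTATTTATtttattacaaa
TNFAIP3, base 1851: aaaattgaatTATTTATacttattataa

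**Figure D1:**
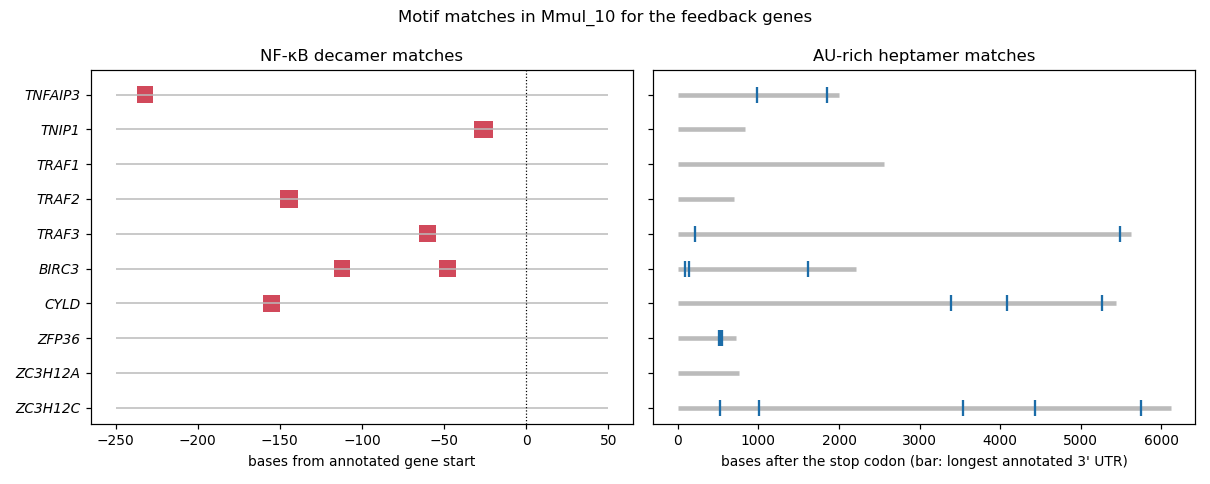
Positions of motif matches in the 10 members in Mmul_10; left, NF-κB decamer matches (red bars) by bases from the annotated gene start, and right, TATTTAT matches (blue ticks) by bases after the stop codon along the longest annotated 3′ untranslated region (grey bars). The 6 promoters with a decamer and the 6 untranslated regions with a heptamer share TNFAIP3, TRAF3, BIRC3 and CYLD.

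The libraries held between 9231109 and 32790348 counts, and the member with the fewest counts in any library, TRAF2, had 279 there, a counting error of 5.99%, which was the largest of any member and library. One doubt about the samples has to stand before the results. The study's own list of normalised values covers the genes it called between the conditions at an FDR under 0.05. It matches the deposited libraries column by column. In 6 of 8 columns its condition is that of the label, whereas the 2 libraries of donor R02046 carry opposite conditions there. The paper also measured secreted protein in R02046, where IL-6 and IL-12p40 were lower with MRS2578 after uLPS and TNF-α was higher. As labelled, the R02046 transcript of IL12B, which encodes IL-12p40, was higher with MRS2578, by 1.08 on the log2 scale. Whether the list or the labels are right could not be settled from the counts, so the labels were kept. The fitted changes are given also without R02046 (3 donors) and with its libraries exchanged. Variance shares, levels with uLPS and profile distances are as labelled. As microglial markers, CSF1R, the receptor for M-CSF, ran from 1061 to 1471 CPM (a gene's count per 1000000 counts, after TMM scaling of the libraries) with uLPS, and P2RY12 from 6.06 to 13.3 CPM. TMEM119 and CX3CR1, genes of resting microglia in tissue, were at most 0.107 and 0.191 CPM with uLPS and at most 0.316 and 2.21 CPM with MRS2578. The list of 10 microglial and macrophage markers, of which 7 passed the filter, summed to 9070 to 11253 CPM with uLPS and 8347 to 10241 CPM with MRS2578. Lymphocyte markers summed to at most 0.518 CPM in any library, and NKG7 was at 0 in all. Oligodendrocyte markers summed to 238 to 407 CPM with uLPS and to 222 to 304 CPM with MRS2578. Endothelial and mural markers summed to 157 to 239 and to 158 to 295 CPM, and astrocyte markers to 68.8 to 188 and to 99.3 to 167 CPM, in the same order. Among the lists for other cell types, the fibroblast markers reached the highest sum of any library, though not in every donor. They came to 150, 90.2, 369 and 1191 CPM with uLPS and to 232, 204, 530 and 430.4 CPM with MRS2578 (R07110, R12016, R02046 and R14143), so that they were higher with MRS2578 in 3 donors and lower in R14143, and their part in the results was not tested. In these bulk samples fewer cells of a type and less RNA per cell cannot be told apart.

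With uLPS the members spanned a wide range of abundance. Their levels are compared per length here, as CPM per kb of annotated exon, because long transcripts collect more reads. The exon lengths are from RefSeq, whereas the counts carry Ensembl gene identifiers, so the lengths may differ from those of the gene models counted. TNIP1 stood highest at 357 ± 35.1 CPM per kb (SD, n = 4), 3.11 times TRAF1 at 115 ± 48.6, and every animal's TNIP1 value lay above every animal's TRAF1 value. TNFAIP3 (61.1 ± 23.6), BIRC3 (47.9 ± 16.7), ZC3H12A (45.4 ± 10.3) and ZFP36 (34.7 ± 12.2 CPM per kb) followed, and the ranges of each neighbouring pair from TRAF1 to ZFP36 overlapped. A gap of 2.56 times, again without overlap, separated ZFP36 from TRAF2 (13.5 ± 1.95), TRAF3 (10.98 ± 1.21) and CYLD (8.90 ± 0.854 CPM per kb), whose ranges overlapped from one to the next. ZC3H12C was lowest at 3.44 ± 1.84 CPM per kb, under CYLD in every animal and without overlap. The order was the same with the length of the longest single transcript, where TNIP1 stood at 405 and TRAF1 at 153 CPM per kb.

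**Figure D2:**
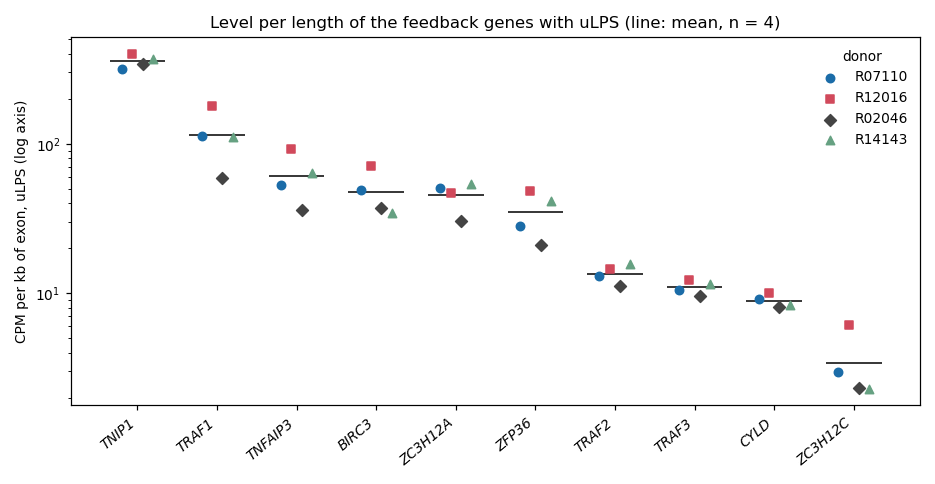
Level of each member with uLPS, in CPM per kb of annotated exon on a log axis, with 1 point per donor and the mean as a line (n = 4). TNIP1 stands apart at 357 CPM per kb and ZC3H12C at 3.44, while the members from TRAF1 to ZFP36 overlap with their neighbours.

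For most members a larger share of the variance lay between donors than between the conditions. The donor share has more degrees of freedom, so it would tend to be the larger with no real difference too, and the shares were not tested. The share of the variance of log2 CPM that lay between donors was 90.1% for ZC3H12C, 84.5% for ZFP36, 71.8% for CYLD and 66.8% for ZC3H12A. It was 48.3% for TNFAIP3 and 40.5% for BIRC3, where the conditions took 15.3% and 10.2%. It was lowest for TRAF3, at 9.83%, where the conditions took 30.9%, and the conditions took their largest share, 36.5%, in TRAF2. With uLPS alone, TRAF1 varied 3.02-fold between the lowest and highest animal, ZC3H12C 2.67-fold and TNFAIP3 2.57-fold, whereas CYLD and TNIP1 varied 1.23-fold and 1.26-fold. As labelled, TNFAIP3 was more alike between animals with MRS2578, where its highest library was 1.33 times its lowest, and TNIP1 was less alike, at 1.63 times. The lowest TNFAIP3 library with uLPS, at 221 CPM, and the highest TNIP1 library with MRS2578, at 1663 CPM, were both from R02046. The conditions of that donor are in doubt, so both contrasts in spread depend on its labels.

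As a group, the members lay lower with MRS2578 in 3 of the 4 animals. The median of the 10 within-donor differences on the log2 CPM scale was -0.20 in R07110 and -0.50 in R12016, with 8 of 10 members lower in each, and -0.11 in R14143, with 7 lower. In R02046, as labelled, it was 0.28, with 2 of 10 members lower. The medians over all tested genes lay between -0.02 and 0.00 in every animal. In the fit over all animals as labelled, 8 of 10 members had a negative log2 fold change, with a median of -0.16, while 52.1% of all tested genes were negative with a median of -0.01. Without R02046 the members' median was -0.28, and with its libraries exchanged it was also -0.28, again with 8 of 10 negative in each. It was close to 0, at -0.04 with 6 of 10 negative, when R12016 was left out of the labelled fit.

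No member passed the test. With the labels as deposited, edgeR's quasi-likelihood test, blocked by donor and with Benjamini-Hochberg adjustment, called 0 of 10 members and 0 of 12131 genes (0.0% of those tested), with 624 genes at an unadjusted p under 0.05 and none of the members among them. Other tools run on the same assignment called 1 gene (DESeq2) and 5 genes (edgeR's likelihood ratio test), none of them a member. The paper itself did call genes with edgeR at an FDR under 0.05. Its list of them gives the R02046 libraries the opposite conditions, and it does not describe the fitted design. Without R02046, 0 members and 0.0% of genes were called. In that fit 5 members, TNFAIP3, TRAF1, TRAF2, TRAF3 and BIRC3, had an unadjusted p under 0.05, among 1670 such genes of 12295 tested. With the R02046 libraries exchanged, 75 genes (0.618%) and 0 members were called. That count was 0 when R07110 was also left out, 5 without R12016 and 918 without R14143. In fits of the exchanged libraries added after the data were seen, DESeq2 called 583 of 12131 genes and 3 members. The likelihood ratio test called 616 genes and 2 members. In the exchanged quasi-likelihood fit of all 4 donors 6 members had an unadjusted p under 0.05: TNFAIP3, TNIP1, TRAF1, TRAF3, BIRC3 and ZC3H12A. They were among 1995 such genes of 12131 tested, far more than the 624 as labelled. As labelled, TRAF2 was the 1 member lower with MRS2578 in all 4 donors, a pattern shared by 6.49% of genes. In the 3 donors without R02046, 6 of 10 members were lower in every donor (TNFAIP3, TNIP1, TRAF2, TRAF3, BIRC3 and ZC3H12A), against 19.8% of genes, and 1 member, CYLD, was higher in every donor, against 17.0% of genes. With the libraries exchanged 5 members were lower in all 4 donors, the same ones without TRAF2, against 13.2% of genes. All MRS2578 libraries lay under all uLPS libraries for 0 of 10 members as labelled (0.412% of genes) and for TRAF3 with the libraries exchanged (1.56% of genes).

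**Figure D3:**
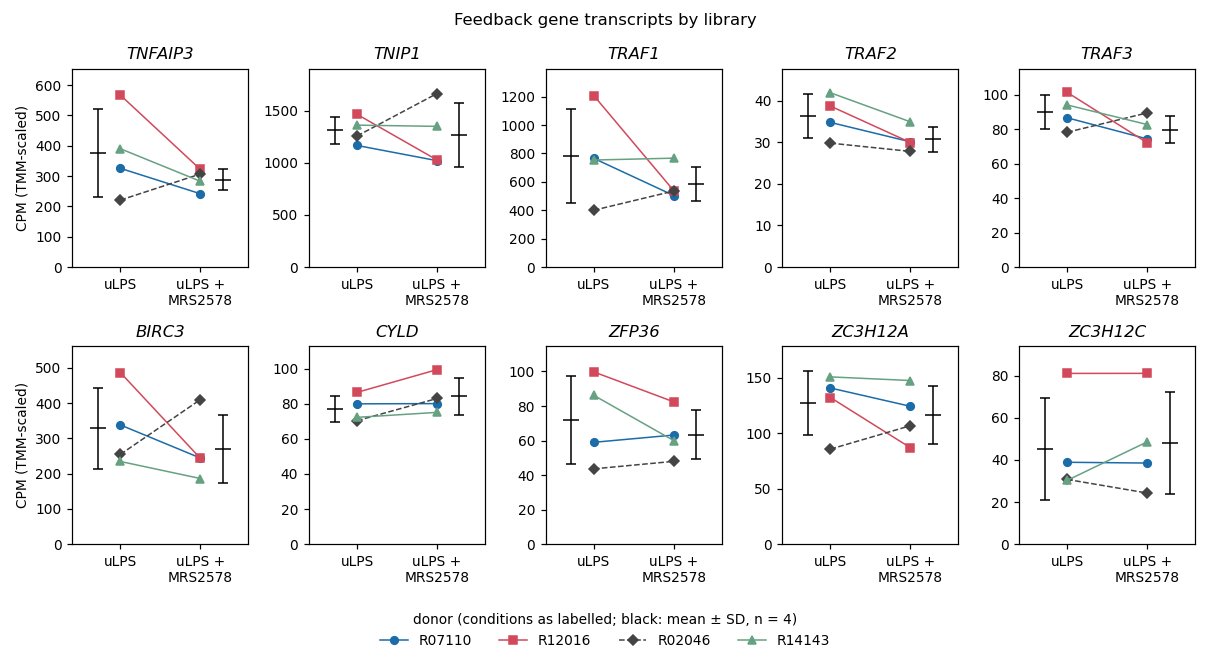
CPM of each member by library, with a line joining the uLPS and uLPS + MRS2578 cultures of each donor (R02046 dashed) and the mean ± SD of 4 libraries in black. The R02046 line runs upwards where those of the other donors run down, as in TNFAIP3, TRAF3 and BIRC3, and TRAF2 is lower with MRS2578 in all 4 donors.

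TNFAIP3 encodes A20, the ubiquitin-editing enzyme that shuts off signalling from Toll-like and TNF receptors (ENSMMUG00000008869, Mmul_10 chr4:41481871-41497577, plus strand). In the uLPS cultures of R07110, R12016, R02046 and R14143 it was at 326, 567, 221 and 390 CPM. In the MRS2578 cultures it was at 242, 322, 307 and 283 CPM in the same order. It was thus lower with MRS2578 in 3 donors and higher in R02046, and the groups overlapped. The means were 376 ± 145 and 288 ± 35 CPM (SD, n = 4), and the fitted log2 fold change was -0.31 (SE 0.20, 95% confidence interval -0.79 to 0.17, adjusted p = 0.881 by edgeR's quasi-likelihood test with Benjamini-Hochberg adjustment). Without R02046 it was -0.57 (interval -0.86 to -0.28, edgeR adjusted p = 0.166). With the libraries exchanged it was -0.55 (interval -0.77 to -0.33), and the edgeR adjusted p of 0.0566 was just outside the threshold of 0.05. This was the lowest adjusted p of any member under the 3 sample sets. With the same exchanged libraries DESeq2 gave an adjusted p of 0.000111, so the call depended on the tool. As labelled, the estimate was -0.14 when R12016 was left out.

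TNIP1 encodes ABIN1, an adaptor that brings A20 to ubiquitin chains (ENSMMUG00000021051, chr6:148477653-148535044, minus strand). With uLPS it was at 1165, 1463, 1256 and 1360 CPM in R07110, R12016, R02046 and R14143. With MRS2578 it was at 1019, 1026, 1663 and 1348 CPM. R02046 with MRS2578 was the highest library of all, and R14143 differed by only -0.01 on the log2 scale. The log2 fold change was -0.08 (SE 0.17, interval -0.48 to 0.33, edgeR adjusted p = 0.959), and it was -0.24 without R02046 and -0.28 with its libraries exchanged (edgeR adjusted p = 0.530 and 0.278). As labelled the estimate was decided by 1 animal, since without R12016 it was 0.07.

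CYLD encodes a deubiquitinase that removes the chains on which NF-κB activation depends (ENSMMUG00000012209, chr20:37840745-37900595, plus strand). It was at 79.9, 86.4, 70.3 and 72.2 CPM with uLPS and at 80.0, 99.4, 82.9 and 75.0 CPM with MRS2578, in the same order of donors. Every donor was level or slightly higher with MRS2578, by 0.00, 0.20, 0.24 and 0.06 on the log2 scale, and the groups overlapped. With 4 donors a two-sided exact permutation test over signs cannot pass 0.05, and its smallest p is 0.13. As labelled CYLD reached that p, as did TRAF2 in the opposite direction, which any gene with the same sign in all 4 donors does. With the R02046 libraries exchanged, the p of this permutation test was 0.875 for CYLD and 0.25 for TRAF2. The smallest p was then reached by TNFAIP3, TNIP1, TRAF3, BIRC3 and ZC3H12A. The fitted log2 fold change was 0.12 (SE 0.09, interval -0.09 to 0.34, edgeR adjusted p = 0.897), and with the R02046 libraries exchanged it was 0.01 (interval -0.22 to 0.23). Without R02046 it was 0.09 (edgeR adjusted p = 0.764).

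TRAF1 is an adaptor without a RING domain that joins TRAF2 and the cIAP proteins at TNF family receptors (ENSMMUG00000041498, chr15:21778553-21805403, plus strand). With uLPS it was at 766, 1208, 400.2 and 754 CPM in the order of donors used above, and with MRS2578 at 504, 538, 536 and 767 CPM. R12016 showed the largest within-donor difference of any member in any donor, -1.17 on the log2 scale, while R14143 differed by 0.03. The means were 782 ± 331 and 586 ± 122 CPM, with a log2 fold change of -0.33 (SE 0.25, interval -0.93 to 0.27, edgeR adjusted p = 0.899). It was -0.58 without R02046 and -0.54 with its libraries exchanged (edgeR adjusted p = 0.356 and 0.186), the latter with an interval of -0.94 to -0.14. Leaving out R12016 from the labelled fit brought it to -0.05.

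TRAF2 is the ubiquitin ligase adaptor that recruits cIAP proteins to TNF receptors (ENSMMUG00000011527, chr15:1286874-1332170, minus strand). It was at 34.8, 38.7, 29.8 and 41.9 CPM with uLPS and at 30.1, 29.9, 27.8 and 34.9 CPM with MRS2578. All 4 donors were lower with MRS2578, with log2 differences of -0.21, -0.37, -0.10 and -0.26, and the groups overlapped because the animals themselves differed. The log2 fold change was -0.24 (SE 0.10, interval -0.48 to 0.01, edgeR adjusted p = 0.878, unadjusted p = 0.0546), the lowest unadjusted p of the members as labelled. Unlike TNFAIP3 and BIRC3 it was no larger with the R02046 libraries exchanged, at -0.19 (edgeR adjusted p = 0.437), and it was -0.28 without R02046 (edgeR adjusted p = 0.342). TRAF3, which holds back the non-canonical NF-κB kinase NIK and promotes interferon signalling (ENSMMUG00000011752, chr7:165055623-165195852, plus strand), was at 86.6, 101, 78.2 and 94.1 CPM with uLPS. It was at 74.4, 72.2, 89.4 and 82.7 CPM with MRS2578, lower in every donor but R02046. Its log2 fold change was -0.18 as labelled, -0.30 without R02046 and -0.27 with the libraries exchanged (SE 0.12, 0.11 and 0.09), and the edgeR adjusted p was 0.888, 0.320 and 0.198. It was -0.07 in the labelled fit without R12016.

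BIRC3 encodes cIAP2, a ubiquitin ligase of the TNF receptor complex that blocks cell death and limits NIK (ENSMMUG00000058594, chr14:95586217-95607579, plus strand). With uLPS it was at 338, 487, 255 and 235 CPM, and with MRS2578 at 245, 244, 410.1 and 186 CPM. The donors differed by -0.47, -0.998, 0.69 and -0.33 on the log2 scale, so that R02046 showed its largest difference among the members and in the opposite direction to the other donors. The fitted log2 fold change was -0.28 (SE 0.25, interval -0.88 to 0.31, edgeR adjusted p = 0.906). It was -0.60 without R02046 (interval -0.97 to -0.23, edgeR adjusted p = 0.210) and -0.62 with its libraries exchanged (interval -0.89 to -0.35, edgeR adjusted p = 0.0629), the largest estimate of any member in these 3 sets. As labelled but without R12016 it was -0.04.

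**Figure D4:**
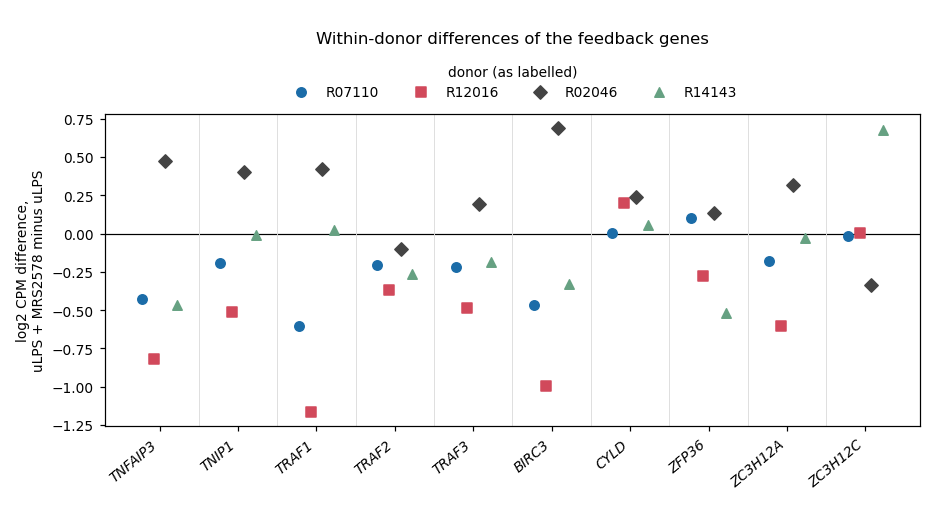
Within-donor difference of each member on the log2 CPM scale, uLPS + MRS2578 minus uLPS, with 1 point per donor and conditions as labelled. R12016 holds the lowest point in 7 of 10 members and R02046 lies above 0 in 8 of 10.

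ZFP36 encodes tristetraprolin, which binds AU-rich elements and recruits the deadenylation machinery to cytokine transcripts (ENSMMUG00000038702, chr19:38657964-38660852, plus strand). It was at 59.0, 99.8, 43.6 and 86.2 CPM with uLPS and at 63.2, 82.4, 48.0 and 60.0 CPM with MRS2578. The order of the animals was largely kept, and the direction was split, with 2 donors lower (R12016 at -0.28 and R14143 at -0.52 on the log2 scale) and 2 higher (R07110 at 0.10 and R02046 at 0.14). The fitted change was -0.14 (SE 0.13, interval -0.46 to 0.18, edgeR adjusted p = 0.906), -0.23 without R02046 and -0.21 with the libraries exchanged. The labelled estimate was -0.09 without R12016 and -0.02 without R14143, and -0.23 without R07110.

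ZC3H12A encodes regnase-1, an endonuclease that cleaves cytokine mRNAs such as that of IL-6 (ENSMMUG00000010323, chr1:187106088-187115898, minus strand). It was at 141, 132, 85.7 and 151 CPM with uLPS and at 124, 86.9, 107 and 147 CPM with MRS2578. R12016 carried most of the difference, at -0.60 on the log2 scale, while R14143 differed by -0.03 and R02046 by 0.32. The fitted change was -0.13 (SE 0.15, interval -0.48 to 0.23, edgeR adjusted p = 0.927) and 0.04 without R12016. It was -0.27 without R02046 and -0.28 with its libraries exchanged (edgeR adjusted p = 0.450 and 0.251).

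ZC3H12C encodes regnase-3, a related endonuclease of macrophages (ENSMMUG00000048435, chr14:103274780-103352431, plus strand). It was at 38.9, 81.0, 30.7 and 30.3 CPM with uLPS and at 38.5, 81.0, 24.3 and 48.5 CPM with MRS2578. R12016 was the highest library in both conditions, and R07110 and R12016 differed by -0.01 and 0.00. The direction rested on R14143, which was higher with MRS2578 by 0.68, and without this animal the log2 fold change of 0.09 (SE 0.17, interval -0.31 to 0.48, edgeR adjusted p = 0.954) became -0.12. It was 0.22 without R02046 and 0.24 with its libraries exchanged (edgeR adjusted p = 0.626 and 0.412). The regnase genes thus had estimates of opposite sign as labelled, and this difference between them was not tested.

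**Figure D5:**
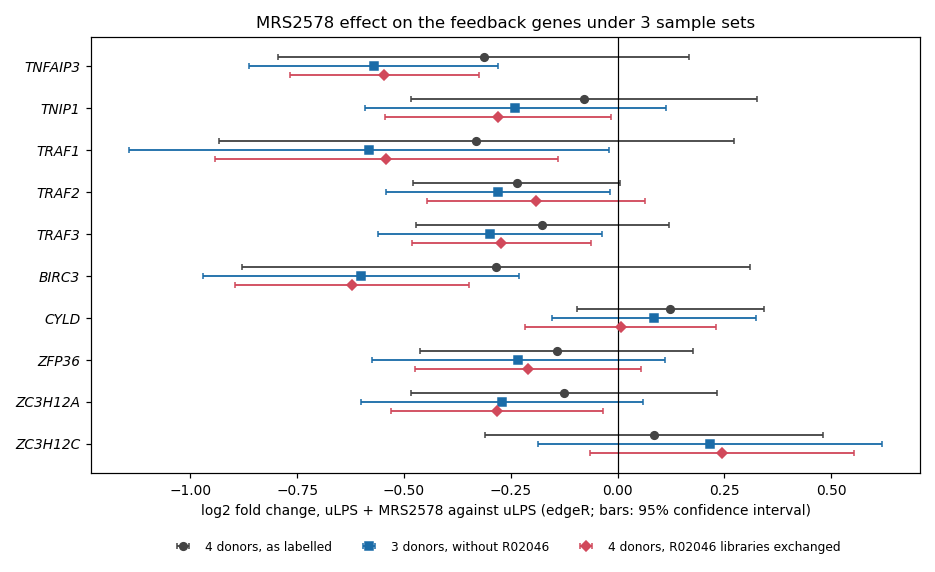
Fitted log2 fold change of each member for uLPS + MRS2578 against uLPS, with 95% confidence intervals, for 4 donors as labelled, 3 donors without R02046, and 4 donors with the R02046 libraries exchanged. The intervals of all 10 members include 0 as labelled, and those of TNFAIP3, TRAF1, TRAF3 and BIRC3 lie under 0 in both other sets.

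The members did not form a single pattern over the 8 libraries. Likeness was measured as the root mean square difference of log2 CPM after each gene was centred on its mean, a distance that is 0 for identical profiles. TRAF2 and TRAF3 (0.15) and TNIP1 and TRAF3 (0.15) were the closest pairs, and TNIP1 and ZC3H12C (0.71) the farthest apart. Among all tested genes, CD2AP, UBE2Z and SGPL1 lay nearest to TNFAIP3, at 0.11 each, where the median gene was at 0.50. GALNT1 (0.12), OSBPL8 and ITGAL (0.16 each) lay nearest to BIRC3. GSAP, NUP188 and CTBP1 lay nearest to ZC3H12A, at 0.07 to 0.09, and MEF2D, RAB11B and GATAD2B nearest to ZFP36, at 0.10 to 0.12.

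Of 10 tested partners of A20 and genes of linear ubiquitin chains, 5 had a higher and 5 a lower estimate with MRS2578, with a median log2 fold change of -0.0047, and 0 were called. The medians were 0.03 both without R02046 (5 higher) and with the exchange (6 higher), with 0 called. OTUD7B, a deubiquitinase related to A20, was at 0.32 as labelled, 0.29 without R02046 and 0.16 with the exchange, and TNIP3, an ABIN family member, at -0.12, -0.23 and -0.23. Of 13 further TRAF, IAP and NIK pathway genes, 7 were higher and 6 lower, with a median of 0.03, and 0 were called as labelled. The split was 7 and 6 without R02046 (0 called) and 6 and 7 with the exchange (1 called).

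MAP3K14 encodes NIK, the kinase whose degradation is directed by TRAF3, TRAF2 and the cIAP proteins. Its level was 9.34 ± 3.15 CPM with uLPS and 15.8 ± 4.38 CPM with MRS2578 (SD, n = 4). It was higher as labelled in 4 of 4 donors, by 0.55, 1.67, 0.24 and 0.63 on the log2 scale. With the exchange the R02046 difference takes the opposite sign. MAP3K14 was named for its large change, and the share of all genes higher in every donor as labelled was not counted. The log2 fold change of 0.77 (SE 0.24), or 0.92 without R02046 and 0.66 with the exchange, did not pass, with an edgeR adjusted p of 0.878 as labelled, 0.230 without R02046 and 0.265 with its libraries exchanged. TANK, an adaptor that binds TRAF proteins and restrains NF-κB, had a level of 146 ± 60.9 CPM after uLPS alone and of 92.1 ± 14.1 CPM after uLPS with MRS2578. Its donors differed by -0.78, -0.95, 0.34 and -0.85, the same split by donor as in TNFAIP3. The log2 fold change of TANK was -0.57 as labelled (edgeR adjusted p = 0.878), -0.86 without R02046 (0.123 by the same test) and -0.74 with the libraries exchanged, where it was the 1 gene of the pathway lists that was called, at an edgeR adjusted p of 0.0430.

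Of 10 further RNA-binding decay factors, 6 were higher and 4 lower with a median of 0.07, and 0 were called. It was 7 and 3 without R02046 (median 0.03) and 6 and 4 with the exchange (median 0.02), with 0 called in each. RC3H1 encodes roquin-1, a partner of regnase-1 in cytokine mRNA decay. It was higher as labelled in 4 of 4 donors, by 0.54, 0.74, 0.35 and 0.13, and the R02046 difference takes the opposite sign with the exchange. Its log2 fold change was 0.45 as labelled (edgeR adjusted p = 0.878). It was 0.48 without R02046 and 0.31 with its libraries exchanged (edgeR adjusted p = 0.306 and 0.444). ZFP36L2, a paralogue of ZFP36, was at 0.30 as labelled, 0.33 without R02046 and 0.21 with the exchange. Of 18 deadenylation and decapping genes, 11 were higher and 7 lower, with a median of 0.02 and 0 called. The split did not hold in the other sets, at 9 and 9 without R02046 and 7 higher and 11 lower with the exchange (median -0.02), again with 0 called. BTG1, which binds the CCR4-NOT deadenylase, was at -0.68, from 288 CPM with uLPS to 162 CPM with MRS2578, and at -0.93 without R02046 and -0.72 with the exchange. TOB1 of the same family was at 0.28, 0.24 and 0.10 in the 3 sets.

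The 12 cytokine and other transcripts known as targets of ZFP36 or regnase-1 had 10 lower and 2 higher estimates as labelled. Their median log2 fold change was -0.54 beside -0.01 over all genes, and 0 were called. The list includes IL6, IL1A and IL12B, which the paper had reported as lower with MRS2578, also from these libraries. A lower median was therefore to be foreseen and says nothing by itself about mRNA decay, which was not tested. Without R02046 all 11 that were tested were lower (median -0.76), and with its libraries exchanged all 12 were lower (median -0.72), with 0 called in each. CSF2, which encodes GM-CSF, was lower in 4 of 4 donors as labelled, a pattern shared by 6.49% of genes. Its donors differed by -1.09, -3.49, -0.23 and -0.85 on the log2 scale, and the R02046 difference takes the opposite sign with the exchange. The log2 fold change of CSF2 was -1.32 as labelled, -1.63 without R02046 and -1.19 with the exchange. IL12B, which encodes the p40 subunit of IL-12, had a log2 fold change of -1.57 with an SE of 0.83, the widest error of the genes named here. Its donors differed by -2.54, -4.02, 1.08 and -0.76, so that R02046 ran against the others, and it was at -2.44 without R02046 and -2.05 with the exchange (edgeR adjusted p = 0.211 and 0.109).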

How the data were processed

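The deposited values are whole-number counts of reads per gene in 8 libraries, made by the authors and not normalized. The paper's methods name fastp, STAR, SAMtools and HTSeq with Mmul_10, whereas the submitters' processing notes name Trimmomatic 0.30, TopHat2 2.0.14, SAMtools 1.3 and HTSeq 0.6.1p1 with the same genome. The library kit marks strand, but the annotation release and how strand was handled in counting are not given in the sources used here. In the RefSeq annotation the exons of the 10 members overlapped those of no other gene (0 bases). The counts carry Ensembl gene identifiers, and overlaps in the annotation used for counting were not checked. Reads from near-identical copies may be lost or split.

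Conditions and donors came from the labels. Counts were analysed in R 4.3.3 with edgeR 4.0.16 (limma 3.58.1, DESeq2 1.42.0): filterByExpr with a minimum count of 10, TMM scaling, and the quasi-likelihood F-test (estimation of edgeR version 4, set with legacy=FALSE) with a term for each donor (the block) and Benjamini-Hochberg adjustment over all tested genes. Calls were made at an adjusted p of 0.05. The SE was derived from the test statistic, and intervals are at 95%. CPM are TMM-scaled, and log2 CPM carry a prior count of 2. Within-donor differences were tested by exact permutation of signs, two-sided.

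Each donor is 1 animal that gave both of its libraries. Within animals, the deviations of these libraries from their group means had correlations over genes of 0.602 (R07110), 0.552 (R12016), 0.458 (R02046) and 0.562 (R14143), and no pair was a duplicate, with a chi-square of at least 20.6 per degree of freedom. A count of 0 allows up to 3 counts, 0.0915 to 0.325 CPM by library, covering counting error only.

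The members, the pathway and marker lists and the tests were chosen with earlier results of these data known. All 10 members are named. From each pathway list the genes named are those past the adjusted p of 0.05 as labelled and otherwise the 2 with the largest absolute log2 fold change at a mean of at least 1 CPM, and for 4 members the 3 genes of closest profile. Positions, lengths and sequences are from RefSeq's annotation of Mmul_10, in which all 10 symbols matched, and levels per length use the merged exons of all transcripts. Alternatives covered scaling, filter, test, block, each donor left out and the R02046 conditions exchanged.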

Additional observations from a re-analysis of the deposited data

Results flagged for a closer look

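In 30 groups of 4 values (the members' CPM in each condition and their within-donor differences), 2 held a value whose gap to its nearest neighbour was more of the group's range than Dixon's 95% critical value for 4 samples. Chance flags about 1 group in 20. TRAF1 with uLPS and MRS2578 was at 767 CPM in R14143 against 504 to 538 CPM in the other 3 donors, a gap of 0.871 of the range. ZC3H12C with uLPS was at 81.0 CPM in R12016 against 30.3 to 38.9 CPM in the others, a gap of 0.831 of the range. R12016 was also the highest library of ZC3H12C with MRS2578, at 81.0 CPM.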

How the results depend on the processing

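As labelled, the count of 0 called genes stayed 0 with other scalings, other filters, each donor left out (0 to 0) and no replicate block, and became 1 with DESeq2 and 5 with edgeR's likelihood ratio test. With the R02046 libraries exchanged it was 75, and in fits added after the data were seen it was 39 with edgeR's earlier quasi-likelihood estimation, 583 with DESeq2, 616 with the likelihood ratio test, 0 without R07110, 5 without R12016, 918 without R14143 and 0 without the donor block. Without the donor block (an unpaired fit), 0 members were called under either assignment. With the exchange, TNFAIP3 and BIRC3 were called by DESeq2 and by the likelihood ratio test, TRAF1 by DESeq2, and all 3 without R14143 by the quasi-likelihood test. The members lower in every donor numbered 1 as labelled, 6 without R02046 and 5 with the exchange. Estimates that turned sign were TNIP1 (0.071; -0.24 to 0.071 over the donors left out) and ZC3H12A (0.037; -0.27 to 0.037) without R12016, ZC3H12C (-0.12; -0.12 to 0.22) without R14143, and, with the exchange, CYLD without R12016 (-0.051) or R14143 (-0.011). The cause was not tested. Of 120 planned refits of single members with another scaling, filter, test or block, a donor left out or the exchange, 117 kept their direction and their side of the threshold. Of 80 refits added after the data were seen, most of them with the exchange, 70 kept both, 8 passed the threshold and 2 turned sign. With 4 animals, 1 culture per condition each, the design allows no exact permutation p under 0.13, and 1 animal can set an estimate: as labelled (-0.31 for TNFAIP3, -0.33 for TRAF1, -0.18 for TRAF3 and -0.28 for BIRC3), these ran over the donors left out from -0.57 to -0.14, -0.58 to -0.048, -0.30 to -0.069 and -0.60 to -0.038, smallest without R12016 and largest without R02046.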
